A study of Mus musculus with 6 samples.

Results

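The genes of the mitochondrial ribosomal proteins were followed in leukaemic mouse bone marrow. They were taken as the probe sets whose gene symbol in the annotated table is Mrpl or Mrps followed by a digit. Of 45101 probe sets on the array, 146 matched, 141 of them naming 1 gene and 5 naming several. The 141 probe sets name 72 genes, and the brightest probe set by mean signal stood for each gene. Every value of a gene below is the log2 signal of that probe set unless another is named. No filter on low values was applied, so all 72 genes were tested among 20577 genes.

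Marrow RNA was hybridised to 1 Affymetrix MG-430_2.0 array per sample. All 6 samples came from leukaemic mice with the NUP98/HOXD13 fusion transgene, a model of myelodysplastic syndrome and acute myeloid leukaemia, and all carry MxCretg, a transgene that places Cre under the interferon-inducible Mx promoter and is not restricted to 1 cell type. In 3 samples, labelled Gfi1b KO, the Gfi1b alleles are floxed (Gfi1bfl/fl), and in the other 3, labelled wildtype, Gfi1b is wild type. Ages, the treatment that induced Cre and the number of mice behind each sample are not given in the labels, so a p-value here reflects only how far these samples spread, which may be technical. The comparison asks how leukaemic marrow differs between the Gfi1b genotypes.

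Mitochondria hold their own ribosome, which translates the few messenger RNAs of mitochondrial DNA into core subunits of the respiratory chain and ATP synthase. Its ribosomal RNAs are made inside the organelle, whereas all of its proteins are encoded in the nucleus and imported. Part of them descend from bacterial ribosomal proteins, and the rest are found only in mitochondria. The small subunit decodes the messenger RNA and the large subunit forms the peptide bond and threads the product to the inner membrane. In blood formation, mitochondrial translation supplies the respiratory chain that maturing red cell precursors use, and leukaemic cells of human acute myeloid leukaemia are known to depend on it.

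The targeted gene went against the label. Gfi1b, a transcriptional repressor of blood progenitors, was the more abundant in the samples labelled KO, at 10.88, 11.63 and 11.67 (replicates 1, 2 and 3, the order used throughout), while wildtype stood at 5.83, 6.37 and 4.38 (log2 difference 5.86, limma adjusted p = 0.00605; exact two-sided permutation p = 0.1, the smallest that 3 against 3 samples allow). Which exons Cre removes is not stated, and the call was lost without KO replicate 2 (limma adjusted p = 0.0584). Every direction below is that of the samples labelled KO. The cell content also differed between the groups. The mean log2 signal of 6 neutrophil granule markers was 8.31, 6.76 and 4.16 in the samples labelled KO and 12.37, 12.84 and 14.01 in wildtype, and that of 6 erythroid markers was 9.71, 9.39 and 8.09 against 6.59, 8.03 and 5.89. In limma 4 of the 6 neutrophil markers fell and 2 of the 6 erythroid ones rose. Of 4 general blood cell markers 2 fell, among them Ptprc, the leukocyte antigen CD45, with means of 6.49 and 10.57. The mean of 5 T cell markers was 8.83 in wildtype replicate 2, and every other sample lay from 4.35 to 4.88. Their part in the differences below was not tested, and in bulk marrow fewer cells of a type and less RNA per cell cannot be told apart.

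Most genes of the mitochondrial ribosome differed little between the groups. In limma, at an adjusted p under 0.05, 3 of the 72 genes rose and 2 fell with the KO label, and 67 did not pass. That is 6.94% of the genes, where 4.53% of all genes were called (2.2% higher and 2.33% lower). The higher genes were Mrps28, Mrpl9 and Mrps30, between 2.34-fold and 2.78-fold, and the lower genes were Mrps25, 2.4-fold, and Mrpl14, 1.65-fold. The log2 differences ranged from -1.27 to 1.48, and 51 were above 0 and 21 below. Their median was 0.23, against 0.01 over all genes and 0.17 over the 4524 genes with a mean signal of at least 6. A difference of at least 1 on the log2 scale in either direction was seen in 6 of 72 genes (8.33%), against 9.63% of all genes. At an unadjusted p under 0.05 there were 19 higher and 3 lower genes, where 9.83% and 9.42% of all genes were. Tested by themselves, 6 of the 141 probe sets were higher and 2 lower at an adjusted p under 0.05, where 2.93% of all probe sets were called (1.53% higher and 1.4% lower).

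**Figure D1:**
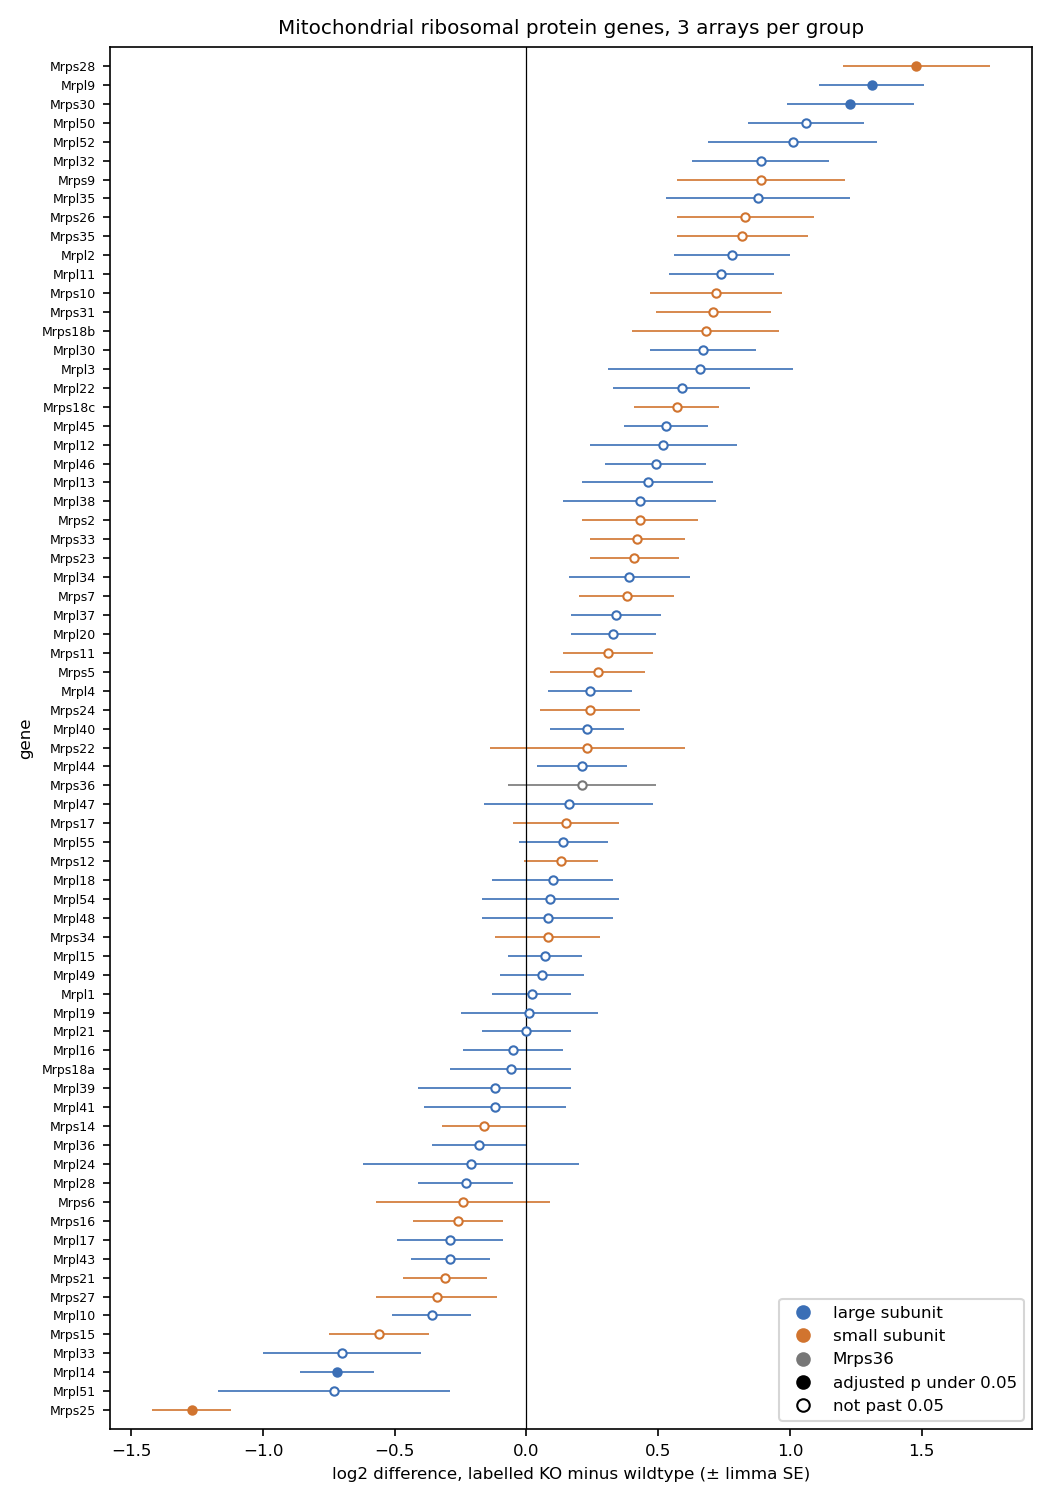
Log2 difference between the samples labelled KO and wildtype for each of the 72 genes, one row a gene, with limma's standard error as bars and 3 arrays per group. Filled points passed an adjusted p under 0.05: Mrps28, Mrpl9 and Mrps30 at the top, and Mrpl14 and Mrps25 near and at the bottom, with the large subunit in blue and the small subunit in orange.

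Since probe sets with little signal cannot show much change, the genes were also set beside others of like signal. Of 60 mitochondrial ribosomal genes with a mean of at least 6, 71.7% had a positive difference, against 59.5% of all genes at that signal. Of the 60, 3 rose and 0 fell, where 6.68% of all genes at that signal rose and 5.81% fell in limma. At an unadjusted p under 0.05, 17 of the 60 were higher and 1 lower, where 27.4% of all genes at that signal were higher and 16.2% lower. The samples labelled KO lay wholly above wildtype in 35% of them, where 29.2% of all genes at that signal did so. They lay wholly below in 5% of them, against 16.3%. A difference of at least 1 in either direction was found in 8.33% of them and in 24.1% of all genes at that signal. The middle 50% of the differences ran from -0.05 to 0.6 for the mitochondrial ribosome and from -0.34 to 0.64 for all genes at that signal. These are descriptions of lists, which were not tested as such.

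**Figure D2:**
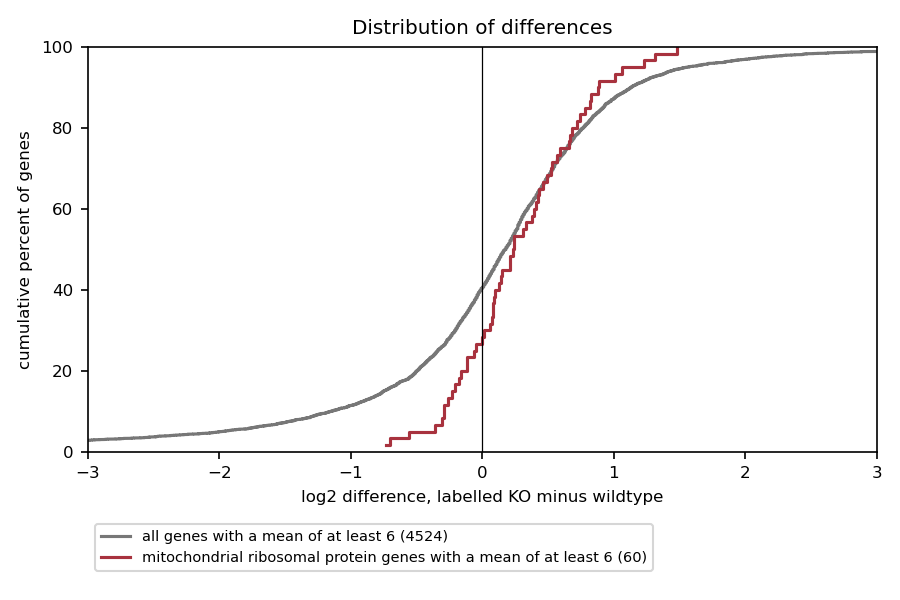
Cumulative percent of genes (vertical axis) by log2 difference between the samples labelled KO and wildtype (horizontal axis, cut at -3 and 3), for 60 mitochondrial ribosomal genes and 4524 genes overall with a mean signal of at least 6. The curve of the mitochondrial ribosome is steeper, between -0.73 and 1.48, and both curves have their middle slightly above 0, at 0.23 and 0.17.

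Mrps28, a small subunit protein related to bacterial S1, had the largest positive difference. It read 7.48, 7.79 and 8.15 in the samples labelled KO and 6.55, 6.65 and 5.8 in wildtype, and the groups did not overlap. The means were 7.81 ± 0.34 and 6.33 ± 0.47 (SD, n = 3), a log2 difference of 1.48 with a standard error of 0.28 (limma adjusted p = 0.0392). Only 1 probe set names it.

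Mrpl9, the counterpart of bacterial L9 in the large subunit, was the best covered of the 5 called genes. It read 6.89, 7.1 and 6.98 in the samples labelled KO and 5.97, 5.81 and 5.26 in wildtype, so the lowest of the former lay above the highest of the latter. The log2 difference was 1.31 ± 0.2 (standard error, limma adjusted p = 0.0237). Its other probe sets differed by 1.25 and 0.85, and all 3 passed when every probe set was tested by itself.

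Mrps30 carries a small subunit name but sits in the large subunit, in the part found only in mitochondria. It read 7.41, 7.6 and 7.54 in the samples labelled KO and 6.8, 6.15 and 5.92 in wildtype, with no overlap. The difference was 1.23 ± 0.24 (standard error, limma adjusted p = 0.0411), from 1 probe set.

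Mrps25, a mitochondria-specific protein of the small subunit, had the largest fall. It read 4.12, 4.26 and 4.27 in the samples labelled KO and 5.38, 5.74 and 5.32 in wildtype. The difference of -1.27 ± 0.15 (standard error, limma adjusted p = 0.0133) rests on a signal near the floor, since the array medians lay between 3.73 and 3.86, and may be compressed. Its other probe sets averaged 3.69 and 3.59 in the samples labelled KO, at the floor, with differences of -0.31 and 0.11 that did not pass.

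Mrpl14, the counterpart of bacterial L14 at the face of the large subunit that meets the small one, fell by 0.72 on the log2 scale with a standard error of 0.14 (limma adjusted p = 0.0378). It read 5.39, 5.34 and 5.64 in the samples labelled KO and 6.15, 6.28 and 6.1 in wildtype, and the groups did not overlap. Its second probe set, with means of 3.37 and 3.44, was near the floor and differed by -0.06.

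**Figure D3:**
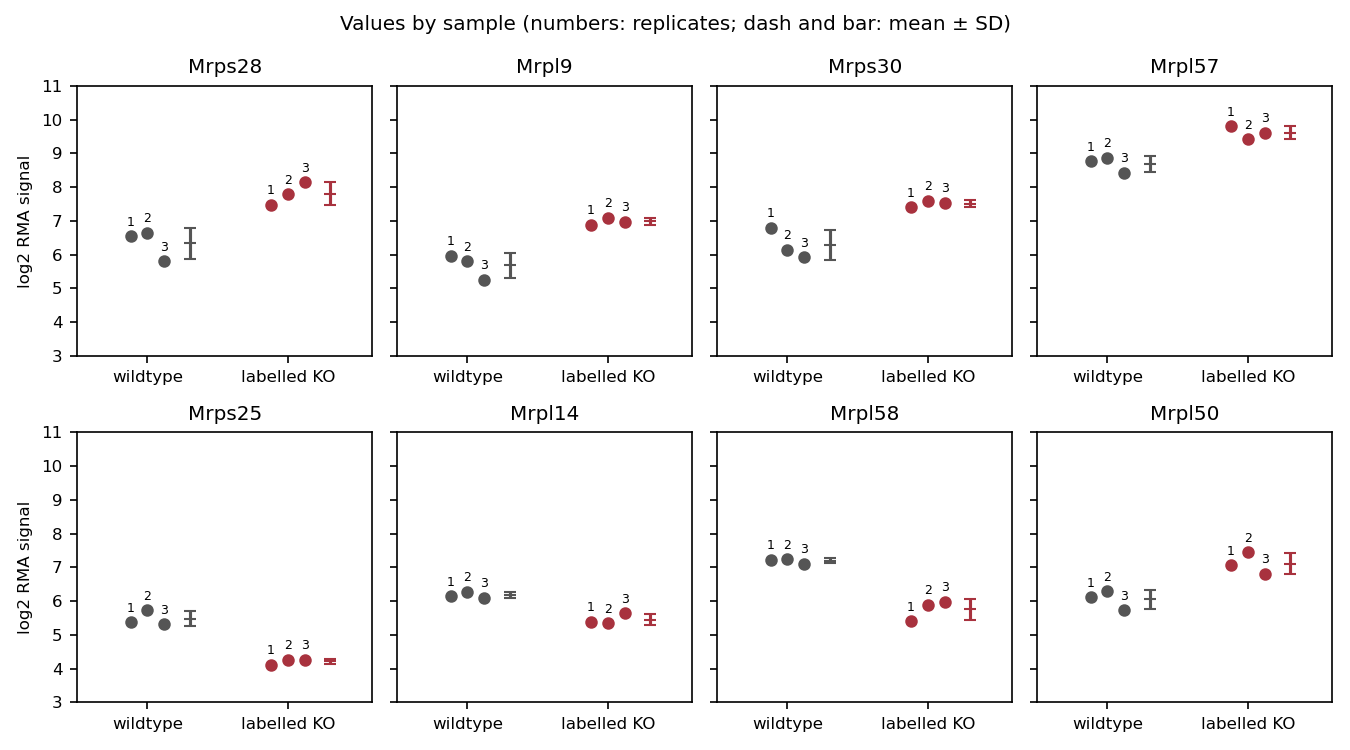
Log2 signal in each sample (points, numbered by replicate) for the 5 called genes, for Mrpl57 and Mrpl58, which the annotated table lists under older symbols, and for Mrpl50, with the mean ± SD of 3 samples at the right of each group. In the 8 panels the samples labelled KO and wildtype do not overlap, and Mrps25, Mrpl14 and Mrpl58 are the ones lower in the samples labelled KO.

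The calls depended on single samples. Leaving out KO replicates 1, 2 and 3 in turn took the count from 5 to 1, 0 and 1. Leaving out the wildtype samples in turn took it to 3, 4 and 2. Mrps25 was lost only without KO replicate 2 (limma adjusted p = 0.0808). Mrpl9 was kept without any one wildtype sample and lost without any one sample labelled KO (adjusted p between 0.0636 and 0.111). Mrps28 passed only without wildtype replicate 2, Mrps30 only without wildtype replicate 1, and Mrpl14 under none of these 6 fits (adjusted p between 0.0513 and 0.131). The differences themselves moved little, from 1.21 to 1.64 for Mrps28, from 1.04 to 1.49 for Mrps30 and from -0.82 to -0.67 for Mrpl14. The count over all genes moved as well, from 933 to 395, 47 and 440 without KO replicates 1, 2 and 3. Without wildtype replicates 1, 2 and 3 it was 349, 1445 and 467. With the replicate number as a block, Mrps25 kept its call, Mrpl50 gained one (adjusted p = 0.0426) and the other 4 called genes lost it.

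The promoters of the called genes are shown because binding sites of the factors NRF1, GABPA and YY1 are a known feature of nuclear genes for mitochondrial proteins. RefSeq (GRCm38.p6) entries, 250 bases before to 50 bases after the start, were found for 63 of the 72 genes, and for Mrpl14, Mrpl9, Mrps25 and Mrps30 among the called ones. Each is written 5′ to 3′ on the strand of the gene, and capitals mark a match to CGCATGCG (the core of the NRF1 site), CCGGAAG (GABPA) or AANATGGCG (YY1, N any base) on either strand.
Mrpl9, chr3:94443086-94443385, strand +: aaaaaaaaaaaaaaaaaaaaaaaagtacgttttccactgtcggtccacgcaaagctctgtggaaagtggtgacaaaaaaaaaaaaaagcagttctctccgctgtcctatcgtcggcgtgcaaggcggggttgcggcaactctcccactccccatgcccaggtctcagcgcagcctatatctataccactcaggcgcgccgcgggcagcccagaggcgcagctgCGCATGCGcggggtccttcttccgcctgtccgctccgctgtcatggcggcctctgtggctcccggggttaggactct
Mrps30, chr13:118387203-118387502, strand -: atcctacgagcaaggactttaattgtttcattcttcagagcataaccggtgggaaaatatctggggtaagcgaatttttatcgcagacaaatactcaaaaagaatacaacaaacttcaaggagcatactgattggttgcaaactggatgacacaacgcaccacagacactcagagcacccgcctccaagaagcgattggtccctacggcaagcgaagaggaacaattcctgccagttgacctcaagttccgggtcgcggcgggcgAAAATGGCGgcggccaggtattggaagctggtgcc
Mrps25, chr6:92183974-92184273, strand -: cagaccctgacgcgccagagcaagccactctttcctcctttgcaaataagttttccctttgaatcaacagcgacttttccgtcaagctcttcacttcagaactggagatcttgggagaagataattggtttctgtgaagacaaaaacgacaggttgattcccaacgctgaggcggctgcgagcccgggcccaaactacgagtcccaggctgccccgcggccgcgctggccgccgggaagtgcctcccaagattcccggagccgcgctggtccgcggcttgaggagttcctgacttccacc
Mrpl14, chr17:45686099-45686398, strand +: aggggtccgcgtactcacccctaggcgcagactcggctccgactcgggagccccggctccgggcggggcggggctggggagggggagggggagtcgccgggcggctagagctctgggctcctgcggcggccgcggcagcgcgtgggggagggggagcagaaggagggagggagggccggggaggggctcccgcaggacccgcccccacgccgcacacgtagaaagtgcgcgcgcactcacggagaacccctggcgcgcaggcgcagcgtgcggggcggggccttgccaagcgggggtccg
Mrpl9 holds the NRF1 letters at bases 224 to 231, shortly before the start, and Mrps30 the YY1 letters at bases 266 to 274, just after it. Those of Mrps25 and Mrpl14, the genes that were lower, hold none of the 3 motifs in this window, which says nothing about binding.

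Across the family the same letters were found in a larger share of genes than over all genes, though most members lack each of them. The NRF1 core was found in the promoters of 7 of 63 genes (11.1%), against 2.07% of the 27025 genes in the table. The GABPA letters were found in 22 genes (34.9%, against 9.93%) and the YY1 letters in 8 (12.7%, against 2.76%). The median GC content was 58% in the family and 52.7% in all promoters, and its part in the shares of motifs was not tested. A promoter of another gene on the opposite strand overlapped that of 22 of 63 genes (34.9%, against 11.9% of all genes). Mrpl46 and Mrps11 face each other in this way, and differed by 0.49 and 0.31. Of 19 such pairs measured on both sides, 9 differed in the same direction, and none of the neighbouring genes passed in limma. Mrpl50, at 1.06, faces Zfp189, at 0.12, and Mrpl2, at 0.78, faces Klc4, at -1.35. Zfp189 had means of 3.49 (labelled KO) and 3.38 (wildtype), at the floor, so it cannot show much change. Some other neighbours were about as dim, such as Cyb5rl at 3.63 and 3.81 and Zfp661 at 3.64 and 3.71. The count of pairs includes them.

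Both subunits held genes that rose and genes that fell. Of 45 large subunit genes, 2 were higher and 1 lower at the threshold, with a median log2 difference of 0.16. Of 26 small subunit genes, 1 was higher and 1 lower, with a median of 0.29. Proteins listed with a bacterial counterpart had medians of 0.15 in the large and 0.26 in the small subunit (28 and 16 genes). Those listed as mitochondria-specific had medians of 0.21 and 0.42 (17 and 10 genes). The latter include Mrps18a in the large and Mrps18b in the small subunit, although both are relatives of bacterial S18. The difference between the subunits was not tested. Mrps36, which bears the family name but is known as a part of the oxoglutarate dehydrogenase complex, averaged 7.47 against 7.26 and was counted with neither subunit.

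Several uncalled large subunit genes had large positive differences. Mrpl50, a mitochondria-specific protein, read 7.07, 7.45 and 6.82 in the samples labelled KO and 6.12, 6.3 and 5.74 in wildtype, a difference of 1.06 (limma adjusted p = 0.0505). Mrpl52, another of these, differed by 1.01 (adjusted p = 0.144), and 2 further probe sets of it by 1.12 and 1.04. Its wildtype values were 8.41, 8.53 and 7.37, the last again that of replicate 3. Mrpl32, whose maturation by a protease of the inner membrane controls ribosome assembly, differed by 0.89 (adjusted p = 0.124). Mrpl35 and Mrpl2, both with bacterial counterparts, differed by 0.88 and 0.78 (adjusted p = 0.243 and 0.112). Mrpl30 differed by 0.67, with 8.69, 8.97 and 8.66 in the samples labelled KO against 8.38, 8.2 and 7.72. None of these 6 passed.

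The stalk of the large subunit, which recruits the translation factors, had differences of both signs, none of them called. Mrpl12, the protein repeated in the stalk, read 7.43, 7.56 and 7.31 in the samples labelled KO and 7.13, 7.32 and 6.28 in wildtype (difference 0.52, limma adjusted p = 0.376), so the groups touched. Mrpl11, at the stalk base, differed by 0.74 (adjusted p = 0.0936) with no overlap. It has 2 x_at probe sets, a kind that can cross-hybridise, which differed by 1.02 and 0.52, and the former passed when every probe set was tested (limma adjusted p = 0.0412 and 0.207). Its dim probe set differed by -0.1. Mrpl10, which anchors the stalk, had the opposite sign, with 6.27, 6.73 and 6.51 against 6.87, 6.91 and 6.81 (difference -0.36, adjusted p = 0.261).

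Other large subunit genes stood lower in the samples labelled KO without passing. Mrpl51 differed by -0.73 and Mrpl33 by -0.7 (limma adjusted p = 0.437 and 0.272), both with overlapping groups. Mrpl43, Mrpl17, Mrpl28 and Mrpl24, the last at the exit of the peptide tunnel, differed by -0.29, -0.29, -0.23 and -0.21. The other probe sets of Mrpl28 differed by -0.03 and -0.64. Neither passed when every probe set was tested (limma adjusted p = 0.925 and 0.0929). Mrpl3, in which human variants are known to cause a respiratory chain deficiency, differed by 0.66 and Mrpl44, with a fold related to RNase III, by 0.21. Mrpl41 differed by -0.12, Mrpl15 by 0.07 at the probe set that stands for it, and the dim Mrpl1 by 0.02. The other probe sets of Mrpl15 with a mean of at least 5 differed by 0.44, 0.31 and 0.34. Its dimmer ones differed by between -0.16 and 0.89, and no probe set of Mrpl15 passed when tested by itself.

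In the small subunit, Mrps26 and Mrps35, both mitochondria-specific, differed by 0.83 and 0.82 with no overlap (limma adjusted p = 0.137 and 0.134). Mrps26 read 7.18, 7.44 and 7.29 in the samples labelled KO and 6.72, 6.81 and 5.9 in wildtype. On the other side, Mrps15, a counterpart of bacterial S15, read 5.46, 5.8 and 6.1 against 6.49, 6.18 and 6.39 (difference -0.56, adjusted p = 0.176). Mrps21 and Mrps16 differed by -0.31 and -0.26, and Mrps14 by -0.16 at a probe set with 8.56 and 8.72. Mrps22, another gene of human mitochondrial disease, differed by 0.23, and the dim Mrps6 and Mrps27 by -0.24 and -0.34, with means over the 6 samples of 4.42 and 4.68.

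The mammalian genome holds 3 relatives of bacterial S18, which are placed in both subunits. Mrps18c, which takes the bacterial place in the small subunit, read 8.45, 8.43 and 8.08 in the samples labelled KO and 7.92, 7.73 and 7.6 in wildtype (difference 0.57, limma adjusted p = 0.106). Mrps18b, elsewhere in the small subunit, differed by 0.68 (adjusted p = 0.257), with 5.64 in wildtype replicate 3. Mrps18a, which belongs to the large subunit, differed by -0.06, with overlapping groups. Differences between the 3 were not tested.

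Wildtype replicate 3 had the lowest signal for most of the family. It was the lowest of the 6 samples in 48 of 72 genes, KO replicate 1 in 14, and wildtype replicate 1 in 0. The median deviation from a gene's own mean was -0.41 in wildtype replicate 3, and 0.04 and -0.03 in wildtype replicates 1 and 2. In KO replicates 1, 2 and 3 it was 0.09, 0.22 and 0.08. Without wildtype replicate 3 the median difference of the family was 0.11, against 0.23 with it, and 42 of 72 genes had a positive difference. The standard deviation was larger in wildtype than in the samples labelled KO for 48 genes, with medians of 0.29 and 0.21. Over wildtype replicates 1 and 2 alone the wildtype median was 0.12, from 2 samples and with the lowest left out. At a mean of at least 6 it was larger in wildtype for 40 of 60 members and 2711 of all 4524 genes. Over these 4524 genes the medians were 0.34 and 0.28, and 0.22 over wildtype replicates 1 and 2.

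**Figure D4:**
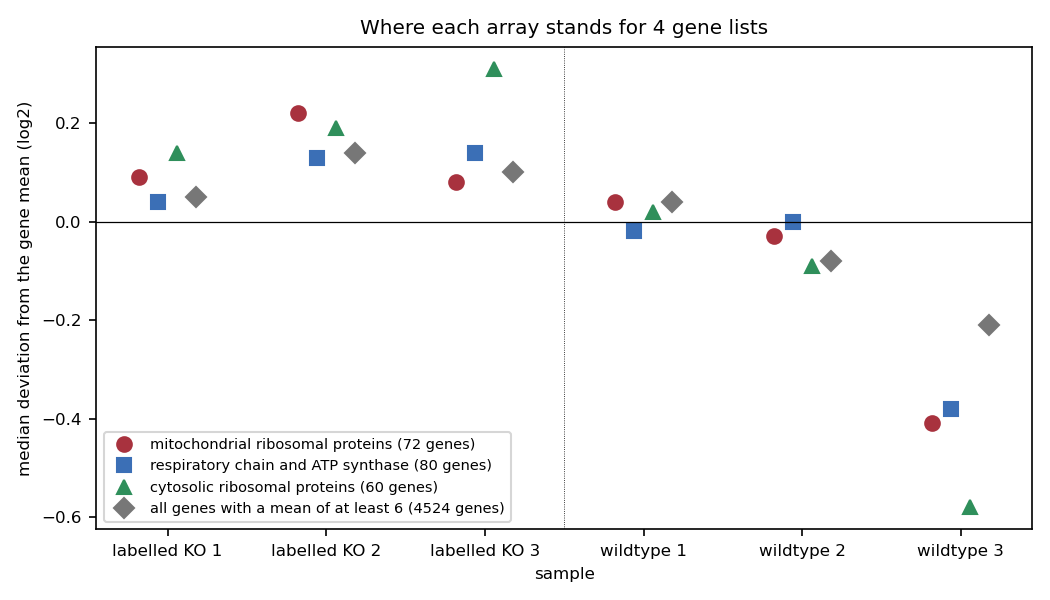
Median deviation (log2) of each sample from the gene means, for 4 gene lists marked by shape and colour. Wildtype replicate 3 lies lowest for each list, at -0.41 for the mitochondrial ribosome and -0.58 for the cytosolic one, and the samples labelled KO lie above 0.

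The same sample was low for related machinery. For 80 respiratory chain and ATP synthase genes its median deviation was -0.38, and it was the lowest sample in 55 of them. For 60 cytosolic ribosomal protein genes it was -0.58, and 53 were lowest there. Over all genes with a mean of at least 6 it was -0.21, and 40% of these were lowest in this sample. The deviation over all genes was 0.01. This sample also had the highest neutrophil marker level, 14.01, and the lowest erythroid one, 5.89. The 3′ minus 5′ signal of the array's actin and Gapdh controls, a measure of RNA integrity, was 0.07 and -0.08 there, and elsewhere ran from -0.01 to 0.39. The part of these in its low values was not tested.

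**Figure D5:**
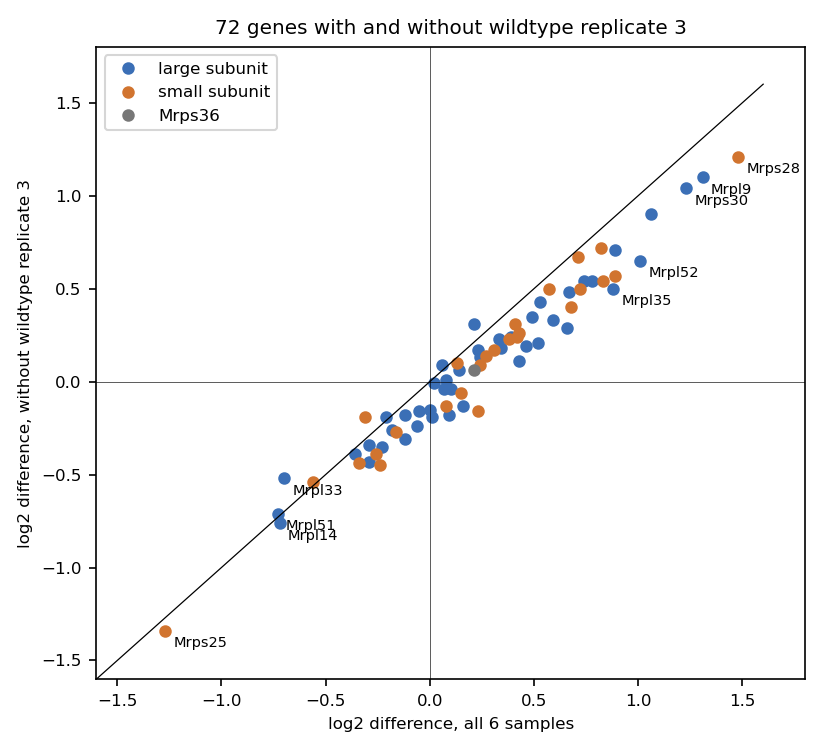
Log2 difference of each of the 72 genes with all 6 samples (horizontal axis) and without wildtype replicate 3 (vertical axis), and the line of equal values. Most genes lie below the line, Mrpl52 and Mrpl35 going from 1.01 to 0.65 and from 0.88 to 0.5. Mrps25 and Mrpl14 also lie below it, going from -1.27 to -1.34 and from -0.72 to -0.76.

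The median log2 difference of the mitochondrial ribosome, 0.23, was the lowest of these 3 lists. It was 0.25 for the respiratory chain, with 0 of 80 genes called, and 0.42 for the cytosolic ribosome, with 1 of 60 called, higher. Of all genes with a mean of at least 6, 12.5% were called. At an unadjusted p under 0.05 in limma, 19 respiratory chain genes were higher and 0 lower. Of all genes with a mean of at least 6, 27.4% were higher and 16.2% lower at that p. The groups did not overlap, with the samples labelled KO above, in 24 of 72 mitochondrial ribosomal genes (33.3%). The same held for 22 of 80 respiratory chain genes (27.5%) and 39 of 60 cytosolic ribosomal genes (65%). It held for 13.2% of all genes and for 29.2% of those with a mean of at least 6. The lists differ in signal, with median levels of 6.8, 8.92 and 12.46 in this order, against 4.18 over all genes. Differences between the lists were not tested.

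Of 8 mitochondrial ribosomal proteins that the annotated table lists under other symbols, 1 rose and 1 fell at the threshold in limma. Over all genes 4.53% were called, and 12.5% of those with a mean of at least 6. Mrpl58, a release factor relative that frees stalled peptides, read 5.41, 5.9 and 5.98 in the samples labelled KO and 7.23, 7.25 and 7.11 in wildtype, and fell by 1.43 on the log2 scale (limma adjusted p = 0.0142). It is listed as Ict1. Mrpl57, listed as Mrp63, read 9.8, 9.43 and 9.62 against 8.77, 8.87 and 8.43, a rise of 0.93 (adjusted p = 0.0368). The mean of all probe sets of Mrpl57 differed by 0.31 and did not pass (adjusted p = 0.174). Leaving out single samples, Mrpl57 passed only without wildtype replicate 2, and Mrpl58 lost its call only without KO replicate 2 (adjusted p = 0.0795). Dap3, a GTP-binding protein of the small subunit, differed by 0.65 (adjusted p = 0.0892) and Aurkaip1 by -0.4, while Chchd1, Ptcd3, Gadd45gip1 and Mrpl42 differed by between 0.01 and 0.36.

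The factors that assemble and serve the ribosome showed no call. Of 24 assembly genes, 12 translation factors, 20 mitochondrial tRNA synthetases and related enzymes, and 10 genes of mitochondrial DNA and transcription, 0 passed in limma, with medians of 0.13, 0.13, 0.07 and 0.08. Over all genes 4.53% were called. The median levels of these 4 lists were 5.61, 5.24, 4.87 and 5.32, against 4.18 over all genes. At an unadjusted p under 0.05 there were 12 higher and 3 lower in these 4 lists, where 9.83% and 9.42% of all genes were. Nearest to the threshold were Malsu1, an assembly factor of the large subunit, which read 6.72, 6.99 and 6.84 against 6.3, 6.1 and 5.82 (adjusted p = 0.0526), and Letm1, an inner membrane protein, at a difference of 0.83 (adjusted p = 0.054). Both were named after their values were seen. Among 10 regulators of mitochondrial biogenesis 0 passed, where 4.53% of all genes did. At an unadjusted p under 0.05, 2 of these regulators were higher and 0 lower, where 9.83% and 9.42% of all genes were. The oncogene Myc, an activator of ribosome genes, read 9.44, 8.6 and 9.54 against 8.6, 8.13 and 7.12 (adjusted p = 0.176), and the groups touched. Nrf1, Gabpa and Yy1, whose binding letters are given above, differed by 0.14, 0.39 and 0.41.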

How the data were processed

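The authors deposited log2 signals made with RMA from Affymetrix MG-430_2.0 arrays, per the submitters' processing notes (version not given in the sources used here), from 200 ng of total RNA, per the labels. RMA sets all arrays to nearly 1 distribution, which makes each difference one against the rest of the array, and low signals are compressed. The deposited tables hold equal log2 values (largest difference 0), and the annotated one adds gene symbols, fold changes and the authors' p-values. In the authors' deposited table, 6 of the 141 probe sets were higher and 2 lower at an adjusted p under 0.05.

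Of 45101 probe sets, 64 are array controls and 37285 name 1 gene. Older symbols were updated through RefSeq synonyms (2676 of 20724). All 72 members have current symbols. The groups were fitted with limma 3.58.1 in R 4.3.3 (lmFit, eBayes), two-sided, with Benjamini-Hochberg adjustment over 20577 genes and a threshold of 0.05. Named members are those past the threshold, the 10 largest differences each way at a mean of at least 6, the 3 brightest and dimmest, a fixed set, and those whose probe sets differ by over 1. Members and lists were chosen with earlier results of these data known, and 3 proteins were moved to the list of other symbols after the files were read. Tested on simulated data, the fit recovered 42% of log2 changes of 1 and 88% of changes of 2 among 20577 genes, and 6.79% of its calls were false. The setting for changed genes was 200, while 933 genes were called in the data. Such rates depend on how many genes change, so they need not hold here. Same-numbered samples of the groups correlated at -0.14, 0 and -0.02 in their deviations from the group means, so no strong shared shift was seen. With 3 samples per group this cannot exclude a pairing, and the labels state none. Alternatives tried were leaving out single samples, a replicate block, other normalizations, moderation, weights, filters, probe set rules and a threshold of 0.1. The number of arrays limits the precision. Figures were drawn with matplotlib 3.10.9.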

Additional observations from a re-analysis of the deposited data

How the results depend on the processing

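The fits kept the direction of the 5 called genes throughout, and their calls did not hold in all. With the replicate block 2 mitochondrial ribosomal genes, 1 partner gene of mitochondrial translation (of 74) and 589 of all genes passed, in place of 5, 2 and 933. The labels do not say whether the numbers pair the samples. With single samples left out the counts ran from 0 to 4, from 0 to 2 and from 47 to 1445. An intensity trend gave 3 members and 1 partner, array weights 4 partners, genes with a mean of at least 5 gave 5 partners, a threshold of 0.1 gave 7 partners and 1778 genes, and every probe set tested by itself gave 8 probe sets of members (6 higher and 2 lower). The mean of all probe sets left Mrps25 and Mrpl14 without a call (adjusted p = 0.0654 and 0.206), with dim probe sets in the mean. With samples left out the median of the family ran from 0.11 to 0.31, that of the large subunit from 0.09 to 0.27 and that of the small subunit from 0.16 to 0.4. After repeated quantile normalization these medians were 0.14, 0.13 and 0.3, in place of 0.23, 0.16 and 0.29. With that normalization 47 members had a positive difference, in place of 51. Signs turned for uncalled genes only. With single samples left out the differences ran from -0.6 to 0.23 for Mrpl24, from -0.5 to 0.09 for Mrps6, from -0.07 to 0.15 for Mrpl1, from -0.24 to 0.15 for Mrps18a, from -0.33 to 0.19 for Mrpl41, from -0.16 to 0.45 for Mrps22 and from -0.04 to 0.16 for Mrpl15. Mrpl15 was at -0.02 after repeated quantile normalization, Mrpl1 at -0.03 with array weights and Mrps14 at 0.04 with the mean of all probe sets. Except where a fit left out samples or averaged probe sets, the cause was not tested.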

Other observations

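Some members had 1 sample far from the others of its group. Mrpl51 read 7.55 and 7.42 in KO replicates 1 and 2, 5.88 in KO replicate 3, and 7.8, 7.5 and 7.73 in wildtype. Its other probe sets, near the floor, had means of 4.14 and 3.26 with the KO label and cannot check this. Mrpl24 read 6.31, 7.34 and 7.97 in KO replicates 1, 2 and 3, and its wildtype values lay between 7.1 and 7.69. Mrpl41 read 6.32 in KO replicate 3, while its other values ran from 6.92 to 7.35.

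The 5 probe sets that name several genes were not counted. The brighter ones were that of Mrpl23, with means of 8.86 (labelled KO) and 8.54 (wildtype), 1 of Mrpl27 with 7.47 and 7.17, and that of Mrpl53 with 6.32 and 6.11. None of the 5 differed by more than 0.32. Of 19 members with 2 or more probe sets at a mean of at least 5, the probe sets had the same sign in 16 and opposite signs in 3.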
